A study of Mus musculus with 6 samples.

Results

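Microglial DNA methylation at peak experimental autoimmune encephalomyelitis (EAE) was compared with that of naive mice in 4 libraries of methyl-CpG binding domain capture followed by sequencing (MiGS), 2 at peak EAE and 2 naive, out of 6 libraries in the series. All 4 MiGS libraries were taken, on chromosomes 1 to 19. Their members were 2915433 windows of 50 bp with reads in at least 1 library, of 2915907 before 474 windows with over 2000 reads summed over the 4 libraries were left out. All mice were Ccr2rfp/+::Cx3cr1gfp/+ on a C57Bl/6 background, so every group carried 1 red reporter allele of Ccr2 and 1 green reporter allele of Cx3cr1. The peak group had EAE induced at 24 to 28 weeks of age with myelin oligodendrocyte glycoprotein peptide 35-55 and was collected at peak, which the labels place on the second day without a rise of the clinical score after sustained worsening. The naive group was collected before induction. Brains and spinal cords were pooled from 30 mice per condition, mononuclear cells were taken from a 30% and 70% Percoll gradient and sorted on F4/80 and CD45, and DNA and RNA came from the same samples. The series calls the MiGS libraries biological replicates. Nothing says that they came from separate pools, and the spread that a p-value rests on here may be partly technical.

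Microglia are the resident macrophages of the brain and spinal cord, and in EAE, a model of multiple sclerosis, they become inflammatory while blood-borne leukocytes enter the tissue. In mammalian DNA, methyl groups sit mostly on cytosines of CpG dinucleotides. Promoters in CpG islands of genes that every cell uses are normally unmethylated, whereas CpG-rich promoters of germline genes are methylated in somatic cells, and imprinted control regions are methylated on the allele from 1 parent. The methyl-CpG binding domain pulls down fragments according to the density of methylated CpGs. Its readout is therefore captured signal and not a methylation level, and low signal can mean few CpGs or unmethylated CpGs.

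The gene starts below are examples of starts with captured signal and of starts with almost none. Each line is the 250 bases before the annotated start, from RefSeq (GRCm38.p6, the assembly that mm10 also names), written 5′ to 3′ on the gene's strand, with each CpG in capitals. Dazl, a germline RNA-binding protein, has 20 CpGs at chr17:50293621-50293870 (minus strand), and Sycp1, a protein of the meiotic synaptonemal complex, has 17 at chr3:102936101-102936350 (minus strand). Nnat, an imprinted neuronal gene, has 12 at chr2:157559828-157560077 (plus strand), and Cd8a, a T cell co-receptor chain, has 0 at chr6:71373177-71373426 (plus strand). Slc2a5, a fructose transporter of microglia, has 15 at chr4:150119094-150119343 (plus strand). Emc7, a broadly expressed membrane protein complex subunit, has 20 at chr2:112454775-112455024 (plus strand), and Top2a, the DNA topoisomerase of dividing cells, has 9 at chr11:99024190-99024439 (minus strand).
Dazl: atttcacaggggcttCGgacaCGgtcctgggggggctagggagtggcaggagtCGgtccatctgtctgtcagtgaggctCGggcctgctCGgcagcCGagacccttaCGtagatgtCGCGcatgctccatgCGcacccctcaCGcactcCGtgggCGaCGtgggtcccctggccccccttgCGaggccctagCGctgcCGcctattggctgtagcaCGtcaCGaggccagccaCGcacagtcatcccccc
Sycp1: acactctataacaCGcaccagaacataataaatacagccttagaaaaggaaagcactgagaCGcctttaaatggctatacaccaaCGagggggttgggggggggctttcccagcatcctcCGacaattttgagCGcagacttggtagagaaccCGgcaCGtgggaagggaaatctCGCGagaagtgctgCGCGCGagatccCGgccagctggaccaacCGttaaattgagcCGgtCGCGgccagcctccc
Nnat: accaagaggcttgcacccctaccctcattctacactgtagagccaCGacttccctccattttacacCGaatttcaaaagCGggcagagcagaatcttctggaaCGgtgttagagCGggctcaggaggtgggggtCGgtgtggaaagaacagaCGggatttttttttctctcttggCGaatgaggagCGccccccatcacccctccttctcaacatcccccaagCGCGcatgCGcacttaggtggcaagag
Cd8a: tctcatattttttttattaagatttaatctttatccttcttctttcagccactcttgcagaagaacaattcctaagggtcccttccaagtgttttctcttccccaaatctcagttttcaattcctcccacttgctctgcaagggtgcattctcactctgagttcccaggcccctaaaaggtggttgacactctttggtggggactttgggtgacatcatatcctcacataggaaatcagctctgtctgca
Slc2a5: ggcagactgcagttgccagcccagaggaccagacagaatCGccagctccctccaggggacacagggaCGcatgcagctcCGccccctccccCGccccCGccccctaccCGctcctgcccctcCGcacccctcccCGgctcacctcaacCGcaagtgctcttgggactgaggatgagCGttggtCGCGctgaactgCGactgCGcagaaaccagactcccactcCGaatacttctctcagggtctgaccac
Emc7: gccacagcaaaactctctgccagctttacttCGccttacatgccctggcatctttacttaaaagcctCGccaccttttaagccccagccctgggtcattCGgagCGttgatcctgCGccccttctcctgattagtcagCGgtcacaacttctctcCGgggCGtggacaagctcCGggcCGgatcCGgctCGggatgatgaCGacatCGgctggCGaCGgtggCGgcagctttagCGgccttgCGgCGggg
Top2a: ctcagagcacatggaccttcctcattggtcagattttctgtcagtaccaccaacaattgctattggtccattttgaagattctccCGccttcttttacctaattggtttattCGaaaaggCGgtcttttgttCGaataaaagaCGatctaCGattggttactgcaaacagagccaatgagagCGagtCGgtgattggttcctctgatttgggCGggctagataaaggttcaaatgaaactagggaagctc
Values are the deposited signal, which is reads scaled by a factor per library. For a gene start it is summed over the windows within 500 bp on each side. The sequences of Dazl, Sycp1, Nnat and Slc2a5 lie at starts with signal in all 4 libraries. Those of Emc7 and Top2a lie at starts with signal in 1 library only, at 13.9 in naive replicate 2 for both. At the Cd8a start the signal was 106 and 138 in the peak libraries and 117 and 81.3 in the naive libraries, although the printed bases hold no CpG.

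The libraries had 19248367 and 19510982 recovered reads at peak EAE and 13700660 and 20633033 in naive microglia, summed over the windows kept. Windows with over 2000 reads held 56.2% and 44.7% of all window reads in the peak libraries and 55.0% and 43.5% in the naive libraries. Of the windows of each library, 7.02% and 0.208% at peak and 0.465% and 18.7% in naive microglia had reads in that library alone. RNA-seq of the same samples, with 1 library per condition, had all 8 microglial markers, with a summed level of 9261 FPKM at peak and 14701 FPKM in naive cells. Summed over their marker lists, monocyte genes (7) had 104.5 and 5.89 FPKM, of which Fn1 alone gave 83.9 and 2.23, T cell genes (6) 2.34 and 0.886, astrocyte genes (5) 23.6 and 52.7, endothelial genes (5) 11.4 and 25.4, and oligodendrocyte genes (4 found of the list) 16.8 and 16.8, each at peak and then in naive cells. Neuron genes (5) had 1.59 and 1.24, in the same order. Of the astrocyte genes, Slc1a2 (8.88 and 24.2), Gja1 and Aqp4 were lower at peak. Gfap (1.67 and 0.675) and Aldh1l1 (4.40 and 3.57) were higher at peak. Cd3e and Cd8a had 2 and 9 counts at peak and 0 counts in naive cells. The part of these cells in the MiGS signal was not tested.

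The 4 libraries differed in how strongly signal was concentrated in the most captured DNA. Of 936241 windows with at least 20 reads over the 4 libraries, ranked by mean signal into 10 equal groups, the highest group exceeded the lowest by 1.12 and 2.92 log2 units in the peak libraries and by 2.92 and 4.99 in the naive libraries. Peak replicate 1 was the flattest library, naive replicate 2 the steepest, and peak replicate 2 and naive replicate 1 had nearly the same slope. The mean was 2.02 ± 1.27 at peak and 3.95 ± 1.47 in naive microglia (SD, n = 2 each), a difference of -1.93 log2 units. The conditions overlapped, and a two-sided exact permutation test over the 4 libraries gave p = 0.667, where 2 libraries against 2 cannot go below 0.333. Without naive replicate 2 the difference was -0.90, and without naive replicate 1 it was -2.97. What sets the slope of a library was not tested.

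**Figure D1:**
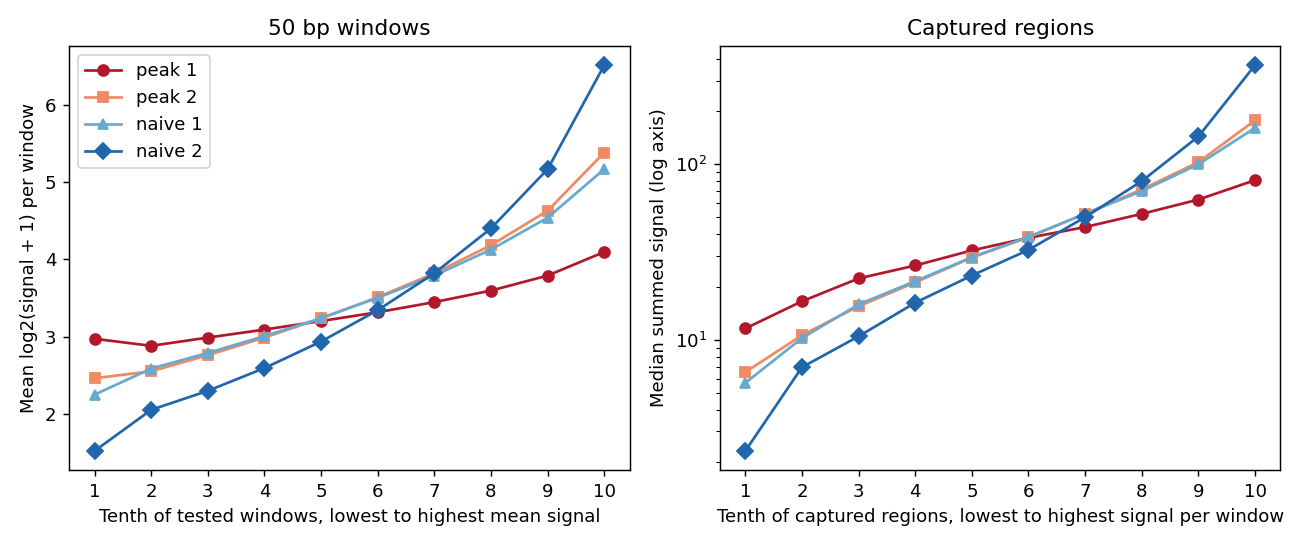
Mean log2(signal + 1) per window in 10 groups of tested windows (left) and median summed signal in 10 groups of captured regions on a log axis (right), 1 line per library. In the highest group of regions the medians were 81.1 and 178 in the peak libraries and 161 and 367 in the naive libraries, and the lines of peak 2 and naive 1 lie on each other.

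Libraries of the same condition were no closer to each other than libraries of different conditions. Neighbouring tested windows, with gaps of up to 100 bp joined, formed 220823 captured regions. Across these regions Pearson's r of log2 signal was 0.770 between the peak libraries and 0.786 between the naive libraries. It was 0.858 between peak replicate 2 and naive replicate 1, the highest of the 6 pairs. Peak replicate 1 and naive replicate 2 gave 0.634, the lowest. The SD of the log2 ratio was 1.02 between the peak libraries, 1.43 between the naive libraries and 0.851 between peak replicate 2 and naive replicate 1. These correlations are over regions of the same 4 libraries, and regions are not independent replicates.

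Captured regions were short and lay mostly within genes. Their length ranged from 50 to 5800 bp with a median of 200 bp, 733 reached 1000 bp, and together they covered 47.4 Mb. Regions at gene starts were 1.52% of the total, regions in the rest of genes 65.5% and regions between genes 33.0%. Over all kept windows, whether in a region or not, gene starts held 1.46% and 1.75% of reads at peak and 1.69% and 1.98% in naive microglia. The share of these reads in the rest of genes was 67.2% and 68.7% at peak and 68.1% and 66.3% in naive microglia. The conditions overlapped in both shares.

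No region passed the test between conditions. limma, a linear model with moderated spread, on log2(summed signal + 1) with Benjamini-Hochberg adjustment called 0 of 220823 regions at an adjusted p of 0.05 (0%), and the lowest adjusted p was 0.775. An unadjusted p under 0.05 was reached by 10716 regions, where 11041 would be reached by a uniform p. The edgeR quasi-likelihood test and DESeq2 on recovered reads also called 0, with 9199 and 9756 regions under an unadjusted p of 0.05. The median log2 change was 0.03, with 5% of regions below -1.27 and 5% above 1.94. Both peak libraries lay above both naive libraries in 19.7% of regions and below both in 16.5%. Without naive replicate 1, when the lone naive library is assumed to vary like the peak libraries, 18222 regions passed, and without naive replicate 2 142 did.

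The direction of the region differences followed the level of capture. In the lowest of 10 groups by signal per window, the median signal was 11.6 and 6.53 at peak and 5.68 and 2.32 in naive microglia, and the median log2 change was 1.10. In the highest group, the median signal was 81.1 and 178 at peak and 161 and 367 in naive microglia, and the median log2 change was -1.02. Peak replicate 1 was the lowest library in 97.2% and naive replicate 2 the highest in 95.3% of the 22083 regions of the highest group. In the lowest group the order turned round, with peak replicate 1 highest in 72.2% and naive replicate 2 lowest in 61.8% of regions. Between the other 2 libraries, peak replicate 2 was above naive replicate 1 in 65.4% of the highest and 59.7% of the lowest group. The groups were ranked on the signal of these same libraries. The filter counted reads, of which 1 was worth 0.828 and 0.816 in the peak and 1.14 and 1.16 in the naive libraries. The order within a group can therefore come in part from how regions were kept and ranked. Over all regions the median log2 change was 0.35 with at least 10 reads, 0.03 with 20 and -0.49 with 50.

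The regions with the smallest p, which did not pass, lay in genes with varied roles or between genes. In Foxo3, a transcription factor of stress responses, the region chr10:42214301-42214500 had signals of 57.1 and 50.6 at peak and 3.41 and 2.32 in naive microglia (log2 change 3.84, SE 0.83, limma adjusted p = 0.775). In Zc3h14, which encodes a protein that binds RNA tails, chr12:98742801-98742950 had 33.9 and 29.4 at peak and 0 reads in both naive libraries. Against a floor of 3 reads per naive library that was at least 9.19-fold higher. A region on chromosome 18, 2124 bp from the predicted gene Gm5507, had 75.3 and 84.9 at peak and 11.4 and 8.13 in naive microglia. These 3 were high in both peak libraries and low in both naive libraries.

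On the lower side, chr3:123194901-123195100 in Synpo2, an actin-binding protein of muscle, had signals of 0 and 1.63 at peak and 36.3 and 79.0 in naive microglia. The region chr1:192631801-192632000 in Hhat, the enzyme that adds palmitate to hedgehog proteins, had 8.28 and 13.9 at peak and 47.7 and 179 in naive microglia. A region between genes, chr6:21027101-21027350, had 14.1 and 26.9 at peak and 84.0 and 192 in naive microglia. The groups did not overlap in these 3 regions either. All of these regions were chosen for their small p and had a limma adjusted p of 0.775. Among all regions, both peak libraries lay below both naive libraries in 16.5% and above both in 19.7%.

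Single windows gave the same count. limma called 0 of 936241 tested windows (0%), the lowest adjusted p was 0.831, and 47614 windows had an unadjusted p under 0.05 against 46812 for a uniform p. The edgeR quasi-likelihood test called 0, with 51843 windows under an unadjusted p of 0.05. The window with the smallest p on the higher side, chr11:4646601-4646650 in Ascc2, a subunit of a DNA repair complex, had signals of 22.4 and 30.2 at peak and 5.68 and 0 in naive microglia. Without naive replicate 1 32691 windows passed, without peak replicate 2 90 and without naive replicate 2 27. On the lower side, chr6:9868151-9868200, 232171 bp from the nearest annotated gene, had 1.66 and 6.53 at peak and 24.98 and 49.9 in naive microglia.

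Most gene starts had no captured signal in any library, and those with signal were set apart by CpG content and expression. Of 25748 gene starts, 17660 (68.6%) had 0 reads in all 4 libraries and 5425 reached 20 reads. The mean signal over all starts was 8.90 and 10.8 at peak and 10.2 and 18.7 in naive microglia, or 9.87 ± 1.37 and 14.5 ± 6.04 (SD, n = 2 each). Starts were grouped by the number of CpGs, counted as the letters CG, in the 250 bases before them. The classes held 19.1% (0 to 1 CpGs), 24.9% (2 to 4), 17.2% (5 to 9), 10.8% (10 to 14) and 28.0% (15 or more) of starts. The share with 0 reads was lowest with 5 to 9 CpGs, at 47.1%, and reached 78.8% with 0 to 1 and 80.3% with 15 or more.

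Starts with 15 or more CpGs had less signal in both peak libraries than in naive replicate 2. Their mean signal was 3.27 and 6.31 at peak and 5.08 and 17.3 in naive microglia, or 4.79 ± 2.15 and 11.2 ± 8.64. With 5 to 9 CpGs it was 20.5 and 22.97 at peak and 22.4 and 33.0 in naive microglia, and with 0 to 1 CpGs 4.04 and 3.91 at peak and 3.88 and 6.04 in naive microglia. Naive replicate 2 had the highest mean in each of these classes, and naive replicate 1 lay between or near the peak libraries. The deposited signal of naive replicate 2 was also higher away from starts. At 4 to 5 kb from starts with 0 to 4 CpGs, the mean per 100 bp was 0.705 and 0.696 at peak. It was 0.691 and 1.01 there in naive microglia, and the class means were not adjusted for this level. Among tested starts the median log2 change was 0.34, 0.33, 0.11, -0.45 and -0.69 from the class with fewest to the class with most CpGs. With 15 or more CpGs, both peak libraries were below both naive libraries at 192 of 705 starts and above both at 52, against 870 (16%) and 1041 (19.2%) of all 5425 tested starts.

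These class medians also depended on single libraries, on the span and on the read filter. For 15 or more CpGs the median was -0.34 without naive replicate 2, -1.14 without naive replicate 1 and -0.04 with 1000 bp on each side of the start. For 10 to 14 CpGs it was -0.18 with 1000 bp on each side and -0.20 with scaling by library totals. For 0 to 1, 2 to 4 and 5 to 9 CpGs it was 0.01, 0.08 and -0.01 without peak replicate 1. With at least 50 reads it was 0.03, 0.13 and -0.002 for these classes. For 10 to 14 and for 15 or more CpGs it was then -0.51 and -0.69.

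**Figure D2:**
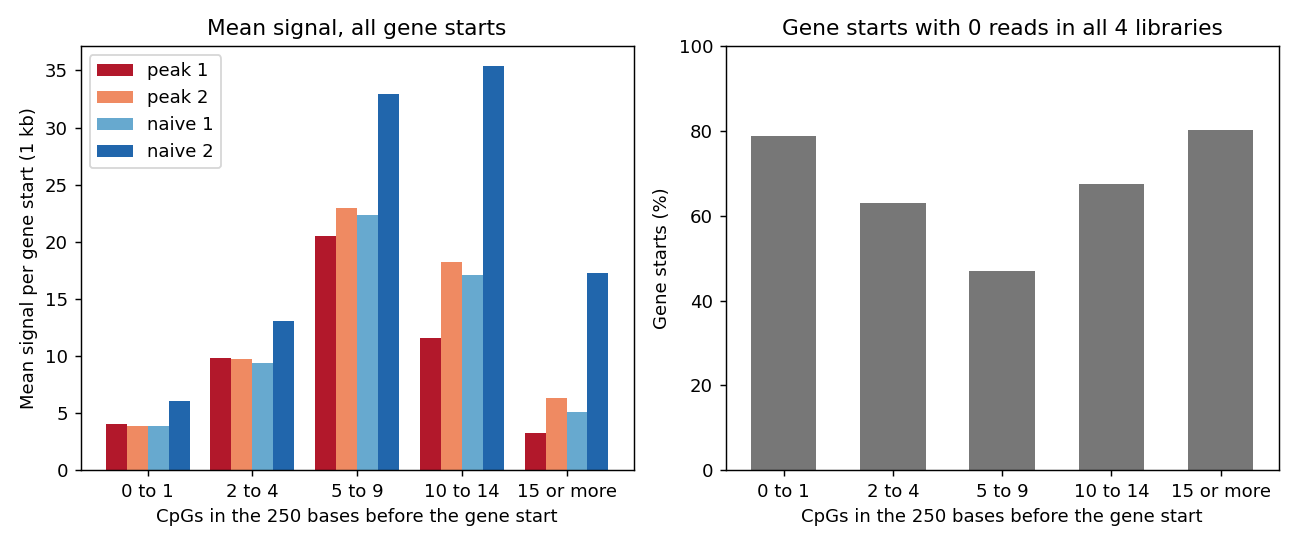
Mean signal per gene start in each library (left) and the share of gene starts with 0 reads in all 4 libraries (right), by number of CpGs in the 250 bases before the start. With 15 or more CpGs the bars are at 3.27 and 6.31 for the peak libraries and at 5.08 and 17.3 for the naive libraries, and 80.3% of starts had 0 reads.

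Around CpG-rich starts the signal fell below its flanks in all 4 libraries and rose again near the start itself, least in peak replicate 1. With 15 or more CpGs, the mean signal per 100 bp at 650 bp before the start was 0.462 and 0.335 at peak and 0.320 and 0.424 in naive microglia. At 50 bp before the start it was 0.358 and 1.06 at peak and 0.737 and 3.42 in naive microglia. In the flanks it was 1.11 and 1.16 at peak and 1.08 and 1.66 in naive microglia. Peak replicate 1 had 0.292 at 350 bp before the start, 0.364 at 150 bp before it and 0.286 at 250 bp after it. Naive replicate 2 was the library with a value at the start above its own flank. Signal within 500 bp of the start was set against signal 4 to 5 kb away. At starts with 15 or more CpGs the ratio, which averages over both, was 0.293 and 0.545 at peak and 0.469 and 1.04 in naive microglia. At starts with 5 to 14 CpGs it was 1.41 and 1.69 at peak and 1.69 and 1.96 in naive microglia, and with 0 to 4 CpGs it was 1.04 and 1.03 at peak and 1.01 and 0.990 in naive microglia. In this ratio at CpG-rich starts peak replicate 1 was lowest and naive replicate 2 highest. Peak replicate 2 lay above naive replicate 1, so the conditions overlapped. That order is one of means and was not that of most single starts. Of the 705 tested starts with 15 or more CpGs, peak replicate 1 was lowest at 31.5% and peak replicate 2 at 30.5%. Naive replicate 2 was highest at 55.6%, and peak replicate 2 was above naive replicate 1 at 40%.

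**Figure D3:**
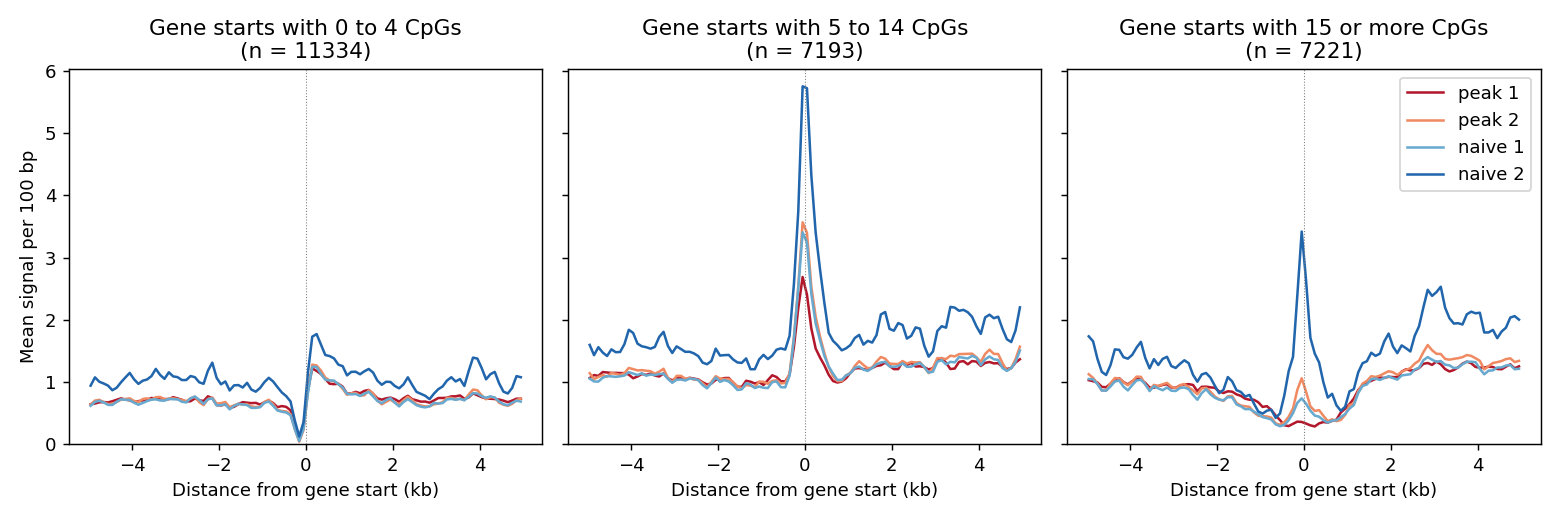
Mean signal per 100 bp against distance from the gene start in kb, along the direction of the gene, for starts with 0 to 4, 5 to 14 and 15 or more CpGs, 1 line per library. At the CpG-rich starts (right) the ratio of centre to flank was 0.293 and 0.545 in the peak libraries and 0.469 and 1.04 in the naive libraries.

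A single gene start passed the test, and 1 library decided it. limma called 1 of 5425 tested starts (0.0184%), with 289 under an unadjusted p of 0.05 against 271 for a uniform p. The edgeR quasi-likelihood test and DESeq2 called 0, with 233 and 203 under an unadjusted p of 0.05. It was the start of Cela1, an elastase of the chymotrypsin family, at chr15:100687420-100688420, with signals of 82.0 and 93.1 at peak and 99.9 and 0 in naive microglia. The log2 change was 3.14 (SE 0.71, limma adjusted p = 0.0473). Naive replicate 1 was above both peak libraries, so the groups overlapped, and without naive replicate 2 the log2 change was -0.19. limma's prior degrees of freedom were infinite here, so the spread came from the trend over all starts and not from the Cela1 values. With a robust estimate of the spread, added after the data were seen, the adjusted p was 0.867, and the edgeR quasi-likelihood test and DESeq2 gave 0.989 and 0.9999. Over the alternatives that kept all 4 libraries and no replicate block, it ran from 0.0487 to 0.9999. The RNA of Cela1 had 124 counts at peak and 22 in naive cells, in 1 library each.

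Other starts with small p did not pass. At the start of Yjefn3, a protein of the YjeF family, the signal was 61.3 and 53.9 at peak and 19.3 and 0 in naive microglia. At Cpa5, a carboxypeptidase whose start shares windows with the predicted gene Gm31453, it was 85.3 and 71.9 at peak and 17.0 and 15.1 in naive microglia. Both were higher in each peak library than in each naive library, with adjusted p of 0.251 and 0.562. Galnt5, a glycosyltransferase of mucin-type glycosylation, had 16.6 and 71.0 at peak and 121 and 257 in naive microglia (log2 change -2.32, SE 0.59, limma adjusted p = 0.154). Krtap17-1, a keratin-associated protein of hair, had 17.4 and 37.6 at peak and 48.8 and 153 in naive microglia. Gpr62, an orphan receptor, had 15.7 and 34.3 at peak and 47.7 and 128 in naive microglia. Each of these 3 was lower in both peak libraries, with peak replicate 1 lowest and naive replicate 2 highest.

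**Figure D4:**
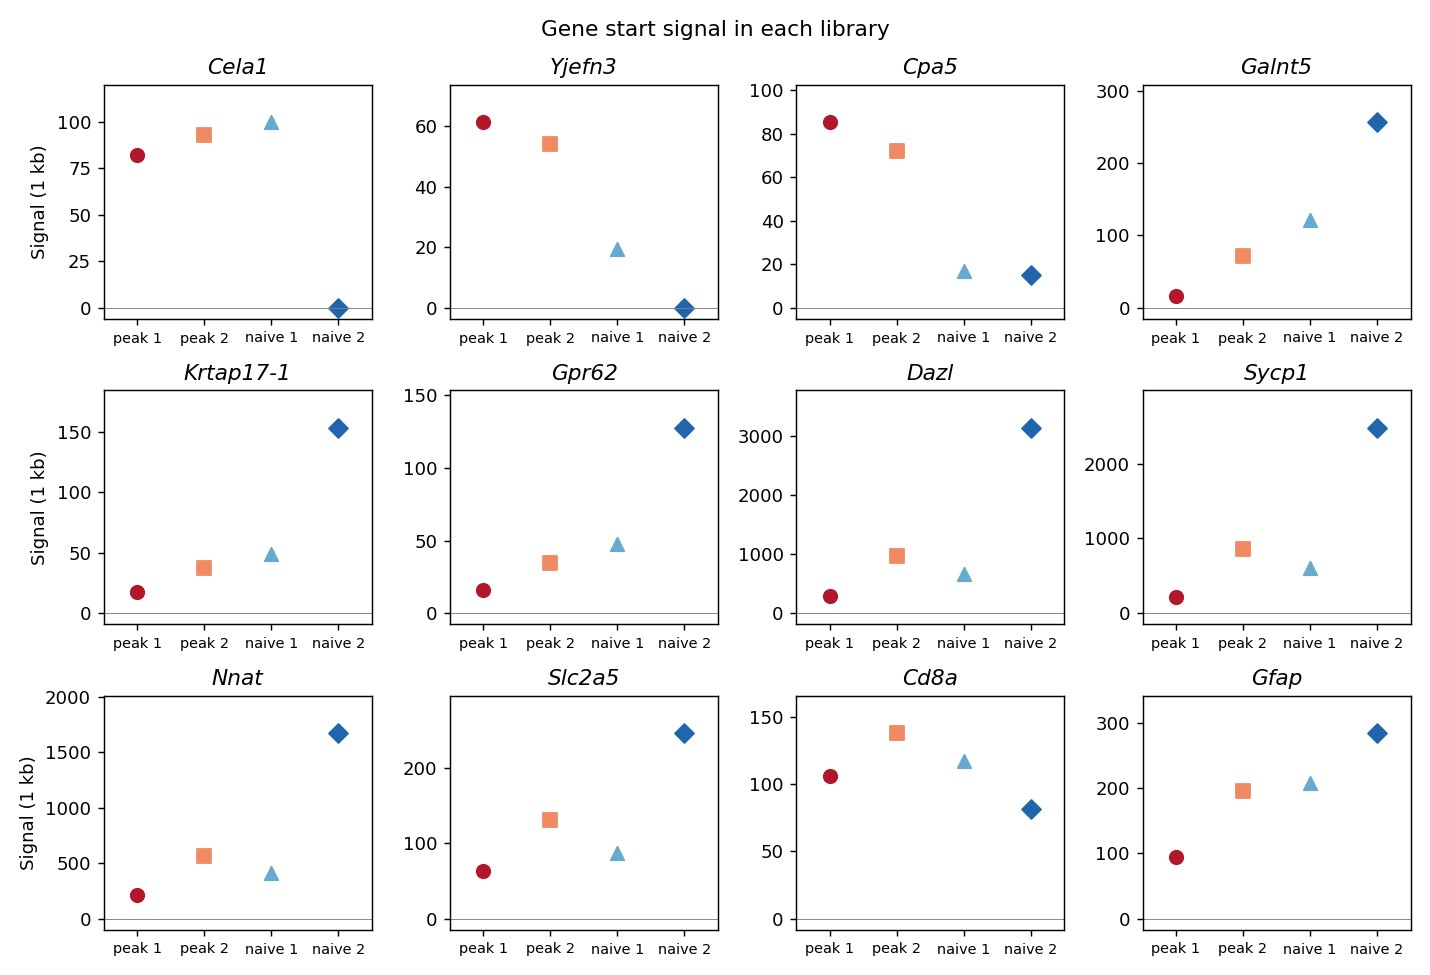
Signal within 500 bp on each side of the start of 12 genes, 1 point per library, with a separate linear axis for each gene. Cela1 is at 82.0 and 93.1 in the peak libraries and at 99.9 and 0 in the naive libraries, and the points of Dazl, Sycp1 and Nnat rank peak 1, naive 1, peak 2 and naive 2 from low to high.

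Germline genes had strongly captured starts, and none of them passed the test between conditions. All 22 germline starts had reads in every library and reached 20 reads, against 21.1% of all starts. Their mean signal was 205 and 535 at peak and 397 and 1342 in naive microglia, or 370 ± 233 and 870 ± 668 (SD, n = 2 each). The start of Dazl had 286 and 963 at peak and 655 and 3140 in naive microglia, and that of Sycp1 had 217 and 864 at peak and 611 and 2484 in naive microglia. Rpl10l, a ribosomal protein variant of the testis, had 193 and 827 at peak and 637 and 3345 in naive microglia. Fkbp6, a partner of the piRNA pathway, had 379 and 923 at peak and 644 and 2556 in naive microglia.

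Peak replicate 1 was the lowest library at 22 of 22 germline starts, and naive replicate 2 was the highest at 21, with Zfp42 as the exception. Peak replicate 2 was above naive replicate 1 at 19 of 22. The groups therefore overlapped at 19 starts, and both peak libraries were below both naive libraries at 3 of 22, beside 16% of all tested starts. The median log2 change was -1.02, against 0.05 over all 5425 tested starts. It was -0.28 without naive replicate 2, -1.70 without naive replicate 1 and -0.05 after quantile normalization, which gives all libraries the same distribution of values. The weakest germline start was that of Zfp42, a pluripotency gene, with 41.4 and 41.6 at peak and 54.5 and 49.9 in naive microglia.

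The 10 gene starts with the highest mean signal included Dazl, Rpl10l, Fkbp6 and Sycp1. Hsf5, a heat shock factor of spermatocytes, had 117 and 891 at peak and 335 and 4102 in naive microglia. Taf7l2, a testis relative of a general transcription factor subunit, had 368 and 1131 at peak and 838 and 2395 in naive microglia. The highest start was that of 3110070M22Rik, which shares windows with Tmem267, at 478 and 3227 at peak and 1192 and 12296 in naive microglia. In these the order of libraries was the one of the germline list. Gm51701, a predicted gene, had 102 and 1239 at peak and 0 and 5608 in naive microglia, so its naive libraries lay on both sides of the peak libraries. The remaining start, 4933428G20Rik, had 182 and 885 at peak and 319 and 4138 in naive microglia.

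Imprinted genes were the other list with strong signal. Of 18 starts, 13 were tested and 4 had 0 reads in all libraries, among them Igf2 and Snrpn. The Igf2 and Snrpn starts used had 1 and 2 CpGs in the 250 bases before them, and other starts of these genes were not examined. Over the 18 starts the mean signal was 81.7 and 172 at peak and 138 and 519 in naive microglia, or 127 ± 64.1 and 329 ± 270. Plagl1, a zinc finger gene whose start shares windows with the imprinted RNA gene Hymai, had 206 and 560 at peak and 482 and 2215 in naive microglia. Nnat had 211 and 565 at peak and 417 and 1674 in naive microglia. Zrsr1, a splicing factor gene, had 183 and 378 at peak and 299 and 1597 in naive microglia, and Peg3, which shares windows with Usp29, had 174 and 353 at peak and 254 and 925 in naive microglia. Peak replicate 2 was above naive replicate 1 at 12 of the 13 tested starts. Of the 13, 0 passed the test, both peak libraries were below both naive libraries at 1 and above both at 1, beside 16% and 19.2% of all tested starts, and the median log2 change was -0.99. Mest, a hydrolase-like gene expressed from the paternal allele, was above with 54.6 and 61.2 at peak and 47.7 and 22.1 in naive microglia, and Meg3, a maternally expressed RNA, was below with 86.1 and 93.1 at peak and 158 and 204 in naive microglia. Igf2r, the receptor that clears Igf2, had 114 and 296 at peak and 203 and 1059 in naive microglia. The median was -0.12 without naive replicate 2, -1.90 without naive replicate 1 and -0.18 after quantile normalization.

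Starts of broadly used and proliferation genes were nearly empty in every library. Of 17 housekeeping starts, 15 (88.2%) had 0 reads and 0 reached the test. Beside this, 68.6% of all starts and 80.3% of starts with 15 or more CpGs had 0 reads. With 10 or more CpGs and a mean level of 10 FPKM or more, the share was 89.8%, near that of the housekeeping list. The mean signal of the housekeeping starts was 0.390 and 0 at peak and 0 and 0.820 in naive microglia. Gpi1, a glycolytic enzyme, had 6.62 in peak replicate 1 alone, and Emc7 had signal in naive replicate 2 alone. Of 28 cell cycle starts, 26 (92.9%) had 0 reads, among them Mki67, Cdk1 and Pcna. The start of Top2a, whose RNA had 10012 counts at peak and 299 in naive cells, had signal only in naive replicate 2, as did that of Tk1, a thymidine kinase whose start shares windows with Afmid, at 10.5. The empty starts named here and in the other lists were chosen after their values were seen. A start with 0 reads has no window that reaches the minimum for listing, which was 3 or 4 reads, so weak capture there was not detectable.

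Starts of microglial genes were mostly empty, as were 68.6% of all starts. Of 19 homeostatic starts, 15 (78.9%) had 0 reads in all 4 libraries, among them P2ry12, Cx3cr1, Sall1 and Siglech. The 1 tested start was that of Slc2a5, with 62.9 and 131 at peak and 87.4 and 246 in naive microglia, values that overlapped between conditions. Its RNA had 9150 counts at peak and 20702 in naive cells. Fcrls, a receptor of resting microglia, had 0 in both peak libraries and 3.41 and 13.9 in naive microglia. Olfml3, a secreted protein of microglia, had 13.9 in naive replicate 2 alone, and Gas6, a ligand of the phagocytic receptors Axl and Mertk, had 8.28 in peak replicate 1 and 2.27 in naive replicate 1.

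Of 23 starts of genes of disease-associated microglia, 14 (60.9%) had 0 reads, among them Apoe, Cst7, Spp1 and Axl, and 5 were tested with 0 calls. Cd9, a tetraspanin, had 21.5 and 6.53 at peak and 6.81 and 27.9 in naive microglia. Lgals3, a galectin, had 18.2 and 0 at peak and 14.8 and 0 in naive microglia, while its RNA had 4586 counts at peak and 117 in naive cells. Igf1, a growth factor, had 24.8 and 2.45 at peak and 0 and 3.48 in naive microglia. Itgax, the integrin chain CD11c, had 19.9 and 2.45 at peak and 0 in both naive libraries, with 8118 RNA counts at peak and 742 in naive cells. Timp2, an inhibitor of metalloproteinases, had 0 and 3.27 at peak and 0 and 19.7 in naive microglia. The highest library was peak replicate 1 or naive replicate 2 at each of these 5 starts.

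Starts of immune effector genes were read against the 68.6% of all starts that had 0 reads. The 9 MHC class II and co-stimulation starts, H2-Aa and H2-Eb1 among them, had 0 reads in all 4 libraries. Of 18 class I starts 16 had 0 reads and 1 was tested, that of H2-T23, a non-classical class I gene, with 0 and 4.90 at peak and 0 and 17.4 in naive microglia. Tapbp, which loads peptides onto class I molecules, had 1.66 in peak replicate 1 and 3.48 in naive replicate 2. Of 31 interferon-response starts 25 had 0 reads, among them Ifit1, Isg15 and Irf7, and 3 were tested with 0 calls. Oasl1, whose start shares windows with the predicted gene Gm13822, had 24.0 and 67.8 at peak and 26.1 and 19.7 in naive microglia, and Oasl2 had 6.62 and 8.98 at peak and 7.95 and 0 in naive microglia. Cxcl9, a chemokine for T cells with 6740 RNA counts at peak and 43 in naive cells, had 29.0 and 5.72 at peak and 13.6 and 10.5 in naive microglia. Irf9, a transcription factor of interferon signalling, had 17.4 in naive replicate 2 alone.

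Of 23 chemokine and cytokine starts 15 (65.2%) had 0 reads, near the share over all starts, and 3 were tested with 0 calls. Cxcl1, a neutrophil chemokine, had 23.2 and 75.9 at peak and 11.4 and 59.2 in naive microglia. Il12b, the shared chain of interleukins that drive T cell polarisation, had 27.3 and 9.80 at peak and 12.5 and 0 in naive microglia, and Il12a had 2.48 and 13.1 at peak and 3.41 and 3.48 in naive microglia. Cxcl14 had 4.14 and 0.816 at peak and 2.27 and 10.5 in naive microglia. In the complement list 6 of 7 starts had 0 reads, and Cd55, an inhibitor of complement, had 0.828 in peak replicate 1 and 4.54 in naive replicate 1.

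Starts of genes that write, read and remove DNA methylation were empty about as often as all starts. Of 16 starts, 12 (75%) had 0 reads, beside 68.6% of all, among them Dnmt1, Dnmt3a, Dnmt3b and Tet2. The starts used for these genes had 2, 38, 21 and 51 CpGs in the 250 bases before them, in that order. Tet1, a dioxygenase that oxidises methylcytosine, had 21.5 and 4.08 at peak and 38.6 and 44.1 in naive microglia and did not pass. Gadd45g, a stress-response protein, had 28.2 and 7.35 at peak and 0 and 23.2 in naive microglia. Uhrf2 had 0.828 and 1.63 at peak and 5.68 and 3.48 in naive microglia, and Tet3, whose start shares windows with B230319C09Rik, had 4.97 and 0.816 at peak and 0 in both naive libraries.

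Of 23 starts of macrophage transcription factors 17 (73.9%) had 0 reads, among them Irf8 and Runx1, and 0 of 3 tested passed. Mef2c, a factor of microglial identity whose start shares windows with the predicted gene Gm33317, had 37.3 and 25.3 at peak and 51.1 and 19.7 in naive microglia. Cebpa, a regulator of myeloid differentiation, had 2.48 and 0 at peak and 0 and 27.9 in naive microglia. Batf3, a factor of dendritic cells, had 3.31 and 4.90 at peak and 6.81 and 15.1 in naive microglia. Pparg, a nuclear receptor, had 2.48 and 2.45 at peak and 4.54 and 10.5 in naive microglia.

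Starts of genes of other cell types were covered in part. For T cell genes, 5 of 10 starts were tested and 4 had 0 reads, and the mean signal was 18.3 and 26.0 at peak and 23.3 and 26.5 in naive microglia. Zap70, a kinase of T cell receptor signalling, had 41.4 and 74.3 at peak and 73.8 and 91.8 in naive microglia, and Lat, its substrate, had 17.4 and 28.6 at peak and 22.7 and 67.4 in naive microglia. Cd3e had 10.8 and 0 at peak and 18.2 and 22.1 in naive microglia, and Lck had 4.14 and 19.6 at peak and 0 and 2.32 in naive microglia. Cd79a, a chain of the B cell receptor, had 28.2 and 34.3 at peak and 66.98 and 59.2 in naive microglia, where the groups did not overlap and the test was not passed. Cd22 and Pax5 were not tested, with at most 13.9 in any library.

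Among genes of neural cells, Gfap, the intermediate filament of astrocytes, had the strongest start, with 95.2 and 196 at peak and 208 and 285 in naive microglia. It shares windows with the predicted gene Gm34560, and it did not pass. S100b, a calcium-binding protein of astrocytes, had 29.0 and 8.98 at peak and 5.68 and 2.32 in naive microglia. Fgfr3 had 21.5 and 5.72 at peak and 14.8 and 2.32 in naive microglia. Of 9 oligodendrocyte starts 5 were tested with 0 calls. Mag, a protein of myelin, had 38.1 and 8.98 at peak and 18.2 and 10.5 in naive microglia, and Ermn had 58.8 and 2.45 at peak and 9.08 and 0 in naive microglia. Cldn11 had 7.45 and 16.3 at peak and 13.6 and 0 in naive microglia, and Cspg4 had 14.9 and 1.63 at peak and 4.54 and 6.97 in naive microglia. Grin1, a glutamate receptor subunit of neurons, had 8.28 and 3.27 at peak and 10.2 and 29.0 in naive microglia, and Gad1 had 5.80 and 11.4 at peak and 7.95 and 11.6.

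Of 10 endothelial starts 2 were tested with 0 calls. Cldn5, a tight junction protein, had 21.5 and 1.63 at peak and 32.9 and 1.16 in naive microglia, so that replicates differed more than conditions. Emcn, a sialomucin of endothelium, had 7.45 and 5.72 at peak and 15.9 and 18.6 in naive microglia. Of 14 monocyte starts 10 had 0 reads, among them Ly6c2 and Ccr2, and Vcan, a matrix proteoglycan, had 7.45 and 11.4 at peak and 13.6 and 18.6 in naive microglia. Of 12 neutrophil starts 8 had 0 reads, and Ngp, a granule protein, had 46.4 and 10.6 at peak and 39.7 and 30.2 in naive microglia. Over the 21 lists, 0 gene starts and 0 gene bodies passed the test.

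**Figure D5:**
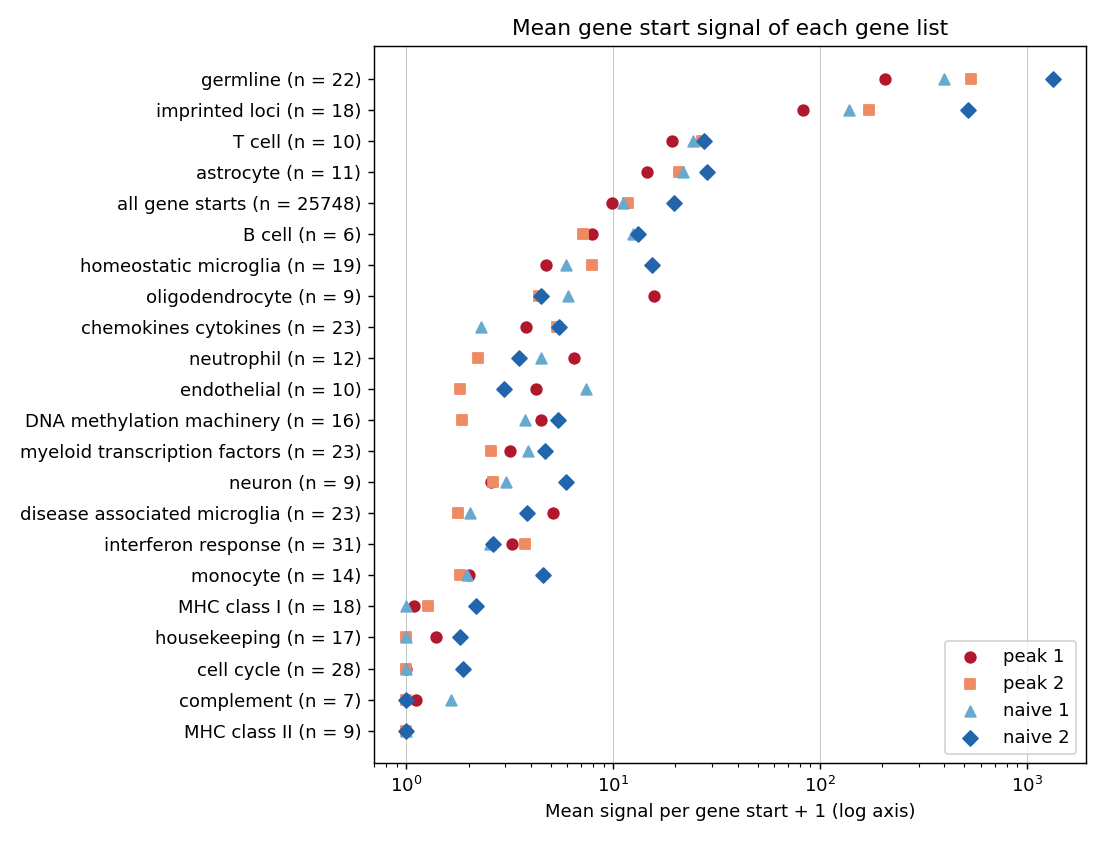
Mean signal per gene start plus 1, on a log axis, for each gene list and for all gene starts, with 1 point per library and n the number of starts. Germline starts are at 205 and 535 in the peak libraries and at 397 and 1342 in the naive libraries before 1 is added, and the MHC class II starts are at 0 in all 4.

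Starts of genes at 1 FPKM or more had less signal than starts of genes without counts, and genes under 1 FPKM did not follow that order at CpG-poor starts. Of 18133 starts with a row in the RNA-seq table, those without counts had 0 reads in 66.0%, those with a mean level under 1 FPKM in 57.2%, those with 1 to 10 FPKM in 82.4% and those with 10 FPKM or more in 87.2%. At starts with 10 or more CpGs, the mean signal of genes without counts was 27.6 and 50.4 at peak and 46.0 and 108 in naive microglia. For genes under 1 FPKM it was 9.14 and 16.5 at peak and 13.4 and 42.1 in naive microglia, and for genes with 10 FPKM or more it was 0.663 and 0.584 at peak and 0.606 and 1.68 in naive microglia. With under 10 CpGs, the mean was 10.7 and 11.7 at peak and 11.5 and 17.4 in naive microglia without counts, 13.3 and 14.2 at peak and 13.8 and 20.1 in naive microglia under 1 FPKM, and 3.69 and 3.63 at peak and 3.55 and 4.64 in naive microglia at 10 FPKM or more. This is a description across genes, with expression averaged over 1 library per condition.

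The difference in gene start signal between conditions was set against the difference in RNA. Over 957 tested starts with at least 50 RNA counts, Pearson's r between the log2 change of signal and the log2 ratio of RNA was 0.021, across genes that share the same libraries. Of 1094 starts of genes with at least 2-fold more RNA at peak, 140 were tested, 1 passed, which was Cela1, and the median log2 change was -0.32. Of 866 with at least 2-fold less, 222 were tested, 0 passed and the median was -0.08. Of 7908 in between, 595 were tested, 0 passed and the median was -0.12. Both peak libraries were below both naive libraries at 19.3%, 21.6% and 18.5% of tested starts in these 3 classes, beside 16% of all tested starts. They were above both at 10%, 16.2% and 15.5%, beside 19.2% of all. With under 10 CpGs the share above was 8.22%, 22.7% and 19.9%, over 73, 110 and 296 tested starts, and the median log2 change was 0.0079, 0.29 and 0.25. With 10 or more CpGs the share above was 11.9%, 9.82% and 11.04%, and the median was -0.58, -0.53 and -0.33. The differences between these classes were not tested.

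Gene bodies, taken without 500 bp at both ends, gave no call. limma called 0 of 24912 (0%), with a lowest adjusted p of 0.982 and 1059 under an unadjusted p of 0.05 against 1246 for a uniform p. The edgeR quasi-likelihood test and DESeq2 also called 0, with 926 and 1019 under an unadjusted p of 0.05. Kcnj10, a potassium channel of glia, had a summed signal of 484 and 287 at peak and 126 and 118 in naive microglia (log2 change 1.60, SE 0.45, limma adjusted p = 0.982). Ogfrl1, an opioid growth factor receptor relative, had 363 and 193 at peak and 120 and 65.0 in naive microglia, and Acot3, a peroxisomal thioesterase, had 151 and 74.3 at peak and 38.6 and 6.97 in naive microglia. In all 3, peak replicate 1 was highest and naive replicate 2 lowest.

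Sult2a8, a sulfotransferase of the liver, had a summed gene body signal of 123 and 394 at peak and 442 and 1312 in naive microglia. Krt14, a keratin of basal epithelium, had 172 and 339 at peak and 472 and 987 in naive microglia. Wnt5a, a ligand of non-canonical Wnt signalling, had 214 and 675 at peak and 661 and 2079 in naive microglia, so peak replicate 2 was above naive replicate 1. Among lists, the median log2 change of the bodies was -0.85 for the 20 tested imprinted genes, -0.09 for the 25 germline genes and 0.31 for the 24 homeostatic microglial genes, beside -0.08 for all gene bodies tested. Other small lists also lay away from that value. The median was -0.37 for 13 MHC class II, -0.33 for 12 oligodendrocyte, -0.33 for 11 endothelial and 0.26 for 10 B cell genes. Differences between lists were not tested.

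At the scale of 100 kb, the deposited signal differed in level between conditions through 1 library, and other scalings removed most of that difference. Of 23916 tested bins limma called 0 (0%), with a lowest adjusted p of 0.146 and 1088 under an unadjusted p of 0.05 against 1196 for a uniform p. The edgeR quasi-likelihood test and DESeq2 called 0, with 1281 and 838 under an unadjusted p of 0.05. The median bin signal was 423 and 394 at peak and 388 and 599 in naive microglia. The median log2 change was -0.26, and 0.05 without naive replicate 2. It was 0.015 with scaling by library totals, 0.023 with quantile normalization and -0.0075 with edgeR and TMM scaling. Without naive replicate 1 4240 bins passed, 4230 of them lower at peak. With all 4 libraries and the deposited scaling, the median was negative on each of chromosomes 1 to 19. It ran from -0.32 on chromosome 7 to -0.21 on chromosome 19. In the same setting it was negative in bins without a gene start (-0.34) and in bins with 7 or more (-0.25).

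The bins with the smallest p were lower at peak and had the order of libraries seen at germline starts. On chromosome 15 at 63500001 to 63600000 the summed signal was 163 and 759 at peak and 458 and 3177 in naive microglia (log2 change -1.77, SE 0.40, limma adjusted p = 0.146). On chromosome 12 at 66200001 to 66300000, which contains Rpl10l, it was 412 and 1160 at peak and 1005 and 4049 in naive microglia. On chromosome 10 at 29100001 to 29200000 it was 427 and 1409 at peak and 1088 and 4605 in naive microglia. In each, peak replicate 2 was above naive replicate 1, so the groups overlapped. The bin with the smallest p on the higher side, on chromosome 6 at 146000001 to 146100000, had 620 and 432 at peak and 326 and 163 in naive microglia.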

How the data were processed

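MiGS and RNA-seq were run on microglia of the same samples, with 2 MiGS libraries and 1 RNA-seq library per condition. The submitters' processing notes name build mm10 and the tools featureCounts, Bowtie2, edgeR and TopHat, without roles or versions. The authors deposited MiGS signal in windows of 50 bp, scaled by a factor per library. Dividing by the smallest value of a library gave whole reads for 100% of values (tolerance 0.001). RNA-seq counts and FPKM are the authors' deposited values per gene, used as a description. In a library without a listed window a start counts as 0 reads: every listed window reached 4 reads in peak replicate 1, peak replicate 2 or naive replicate 1, or 3 in naive replicate 2. A fragment can fall in neighbouring windows, so neighbouring windows are not independent. Chromosomes X and Y were not analysed here.

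Signal was summed over windows, captured regions (tested windows joined over gaps of up to 100 bp), gene starts (500 bp on each side), gene bodies and bins of 100 kb. Features with at least 20 reads over the 4 libraries were tested with limma 3.58.1 (trend) on log2(signal + 1), with Benjamini-Hochberg adjustment at 0.05. These fold changes understate those of low features. edgeR 4.0.16 and DESeq2 1.42.0 on recovered reads were alternatives, beside other pseudocounts, filters and scalings, each library left out, and the replicate block. The limma step was tested on simulated data with counting error or a small added spread. Those data had no difference in slope between libraries, so their outcome does not show how the test behaves here. Gene starts and the bases before them came from RefSeq (GRCm38.p6). Each gene had a single start, the one at the outer end of the gene where it was available, so other promoters were not examined.

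Named features were the 3 with the smallest p in each direction at each scale, up to 4 members per list with the highest mean signal and up to 2 with the largest change, and the 10 highest gene starts; others are said to have been chosen after their values were seen, as were Mest, Meg3, Igf2r and the further members given to complete a list. The members and lists were chosen with earlier results of these data known. The RNA marker sum of 1 cell type is not reported here.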

Additional observations from a re-analysis of the deposited data

How the results depend on the processing

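The call at the Cela1 start was the only one and became 0 with robust limma (added after the data were seen), pseudocounts of 0.5 and 4, at least 10 or 50 reads, no filter, library totals, quantile normalization, edgeR with TMM or DESeq2 size factors, DESeq2, 1000 bp on each side and each library left out (0 to 0); it stayed at 1 with the windows over the read limit kept. Without naive replicate 2 the Cela1 log2 change turned to -0.19, the lowest value with a library left out; the highest was 6.47, without naive replicate 1. With at least 50 reads 3 windows and 74 regions passed, with no filter 1 region, and with library totals 1 gene body. With each library left out in turn, calls ranged from 0 to 32691 windows, 0 to 18222 regions and 0 to 4240 bins, the highest counts each without naive replicate 1. The gene start medians then ranged from 0.010 to 0.73 (0 to 1 CpGs), 0.082 to 0.71 (2 to 4), -0.010 to 0.38 (5 to 9), -0.59 to -0.30 (10 to 14) and -1.14 to -0.34 (15 or more). Library totals gave -0.20 for 10 to 14 CpGs, and 1000 bp on each side gave -0.18 there and -0.043 for 15 or more. At least 50 reads gave 0.032 for 0 to 1, 0.13 for 2 to 4 and -0.0021 for 5 to 9 CpGs. The germline median was -0.05 and the imprinted one -0.18 with quantile normalization. The cause was not tested.

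The labels share replicate numbers between conditions but do not say that a number pairs libraries. The correlation of replicate differences was 0.398 for windows, 0.357 for regions, 0.217 for gene starts, 0.0835 for gene bodies and -0.129 for bins. With the replicate block limma called 71009 windows, 18547 regions, 284 gene starts, 167 gene bodies and 0 bins, of which 68437, 15981, 265, 163 and 0 were lower at peak; with crossed numbers, chosen after seeing the data, it called 0 bins.

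With 2 libraries per condition that differ in slope, a difference smaller than that between replicates was not detectable, and starts below the listing minimum carry no value.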

Other observations

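Among the captured regions, 29 had 0 reads in naive replicate 2 and at least 50 reads in each of the other 3 libraries. The same pattern was found at 2 regions for peak replicate 1, at 0 for peak replicate 2 and at 1 for naive replicate 1.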
